A study of Mus musculus with 15 samples.

Results

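The 9 Toll-like receptor genes *Tlr1*, *Tlr2*, *Tlr3*, *Tlr4*, *Tlr6*, *Tlr7*, *Tlr8*, *Tlr9* and *Tlr13* and the co-receptor gene *Cd14* were followed across macrophages at rest, polarized macrophages and macrophages that had met inhalable microrods. They were found by matching the Ensembl gene identifiers of the count table to their symbols, which gave 10 of the 78317 identifiers. Of these genes, 9 of 10 passed the filter on low counts and were tested, and *Tlr3* did not pass. The cells were MH-S, an SV40-transformed line of mouse alveolar macrophages grown in RPMI medium with serum, and every group held 3 wells harvested after 24 h. M0 cells received medium alone. M1 cells received 1 µg/mL lipopolysaccharide (LPS) with 20 ng/mL IFN-γ, and M2 cells received 20 ng/mL IL-4. The CaP and SiO2 groups received microrods at 0.1 mg/mL, built of calcium phosphate or silica nanoparticles with alginate and coated with protamine and carboxymethyl chitosan. All wells held 1 passage of 1 cell line, and each rod well received its own preparation of particles, dosed by mass and not by number of rods. The error of a group therefore stems from its wells and, for rods, their preparations, while variation among passages was not sampled.

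Toll-like receptors recognise molecules typical of microbes and pass the signal through adaptor proteins to NF-κB, AP-1 and interferon regulatory factors. TLR4 responds to LPS, which CD14 hands to it together with MD-2, while TLR2 pairs with TLR1 or TLR6 to recognise bacterial lipoproteins at the cell surface. TLR3, TLR7, TLR8, TLR9 and TLR13 sit in endosomes and sense nucleic acids. Macrophages use both sets, and the receptor repertoire sets which microbial products they can answer.

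Libraries held between 8459643 and 68750050 counts, so the least deep library measured rare transcripts with the least precision. Of 7 general macrophage markers, 6 reached 5 CPM (counts scaled to a common library size) in every group. Of 7 markers of alveolar macrophages in the lung, 0 reached 5 CPM in any group, and their summed level lay between 3.00 and 6.18 CPM over all libraries, so the labelled cell type was borne out by general macrophage markers and not by these. The summed markers of T cells, epithelium and fibroblasts stayed between 0 and 0.137 CPM, those of B cells between 0.0615 and 0.430 CPM and those of neutrophils between 0 and 1.50 CPM. Dendritic cell markers summed to at most 1.45 CPM outside M1 and 2.84 to 4.28 CPM in M1, where *Ccr7* rose, and endothelial markers to at most 1.77 CPM. Their part in the results was not tested. The M1 check genes *Il1b*, *Il6* and *Nos2* rose in M1 against M0 (3 of 3 genes), and the M2 check genes *Arg1*, *Clec10a* and *Ccl24* rose in M2 (3 of 3 genes). In the opposite polarization, 0 of 3 M1 genes changed in M2, while *Arg1* rose and *Clec10a* and *Ccl24* fell in M1.

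Promoters are shown for the 3 Toll-like receptor genes of the set that act at the cell surface and were called under a polarizing stimulus. *Tlr5*, which is outside the set, was also called in M1 and its promoter was not searched. *Tlr2* differed there from its dimer partners *Tlr1* and *Tlr6*. The sequences come from the RefSeq table of promoters (build GRCm38.p6). *Cd14* was left out of the promoter search, which covered 7 of the 10 genes, with 9 start sites. Each is read 5′ to 3′ on the gene's own strand from the 250 bases before the start, without bases that lie in an annotated exon, and letters matching a searched motif are in capitals. The authors' counts rest on build GRCm39, and no coordinate of that build is given.
Tlr2, chr3:83841768-83841858, minus strand: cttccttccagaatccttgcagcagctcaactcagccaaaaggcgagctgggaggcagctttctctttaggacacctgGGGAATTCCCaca
Tlr1, first start, chr5:64933564-64933808, minus strand: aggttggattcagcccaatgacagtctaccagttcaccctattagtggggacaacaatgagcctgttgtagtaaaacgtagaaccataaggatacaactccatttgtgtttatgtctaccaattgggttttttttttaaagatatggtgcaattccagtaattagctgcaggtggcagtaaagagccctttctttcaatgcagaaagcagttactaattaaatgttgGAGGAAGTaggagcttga
Tlr6, first start, chr5:64959167-64959416, minus strand: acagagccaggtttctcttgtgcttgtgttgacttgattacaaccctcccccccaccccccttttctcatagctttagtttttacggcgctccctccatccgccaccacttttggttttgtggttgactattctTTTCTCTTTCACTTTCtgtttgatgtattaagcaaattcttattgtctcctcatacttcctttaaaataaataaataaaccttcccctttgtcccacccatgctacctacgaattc
The capitals in *Tlr2* mark matches to the κB motif GGGNNTTCC, the site type read by NF-κB, on both strands and overlapping. This motif occurs in 4.98% of the 32851 promoters of the table. The capitals in *Tlr1* mark the PU.1 motif GAGGAAGT, found in 2.44% of promoters, and those in *Tlr6* mark 2 overlapping matches to the interferon-stimulated response element GAAANNGAAA on the reverse strand, found in 2.98%. By GENCODE the *Tlr6* stretch lies inside the gene, between exons. The interferon-γ-activated site TTCNNNGAA, found in 7.02% of promoters, was matched before *Tlr8* and the second start of *Tlr1*. In all, 5 of the 9 start sites held a match to 1 of these 4 motifs, searched on both strands. The search covered all 250 bases before each start, exon bases included. The match at the second start of *Tlr1* lies outside the longest exon-free stretch of its window. A match is a run of letters and was not tested for binding. *Tlr4* and *Tlr7* are named only.

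The plot of levels by library gives all 10 genes. *Cd14* spanned the widest range of levels, *Tlr2* was lowest in M2, *Tlr1* and *Tlr6* were highest in M1, and the levels of both rod groups lay near those of M0 for most genes. Per kilobase of transcript, *Cd14* was the most abundant of the 10 in every group, *Tlr2* the second and *Tlr1* the third. In M0 cells the level was 171 CPM per kb for *Cd14*, 11.2 for *Tlr2* and 2.49 for *Tlr1*, and the rest lay between 0.0679 (*Tlr3*) and 1.74 (*Tlr13*). The gap between *Tlr2* and *Tlr1* was smallest in M2 cells, at 3.31 ± 1.11 against 2.35 ± 0.308 CPM per kb (SD, n = 3). Within the M2 libraries the ratio of *Tlr1* to *Tlr2* per kilobase was 0.622 to 0.996. The difference between the 2 genes was not tested. In bulk RNA a smaller share of expressing cells and less RNA per cell cannot be told apart.

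**Figure D1:**
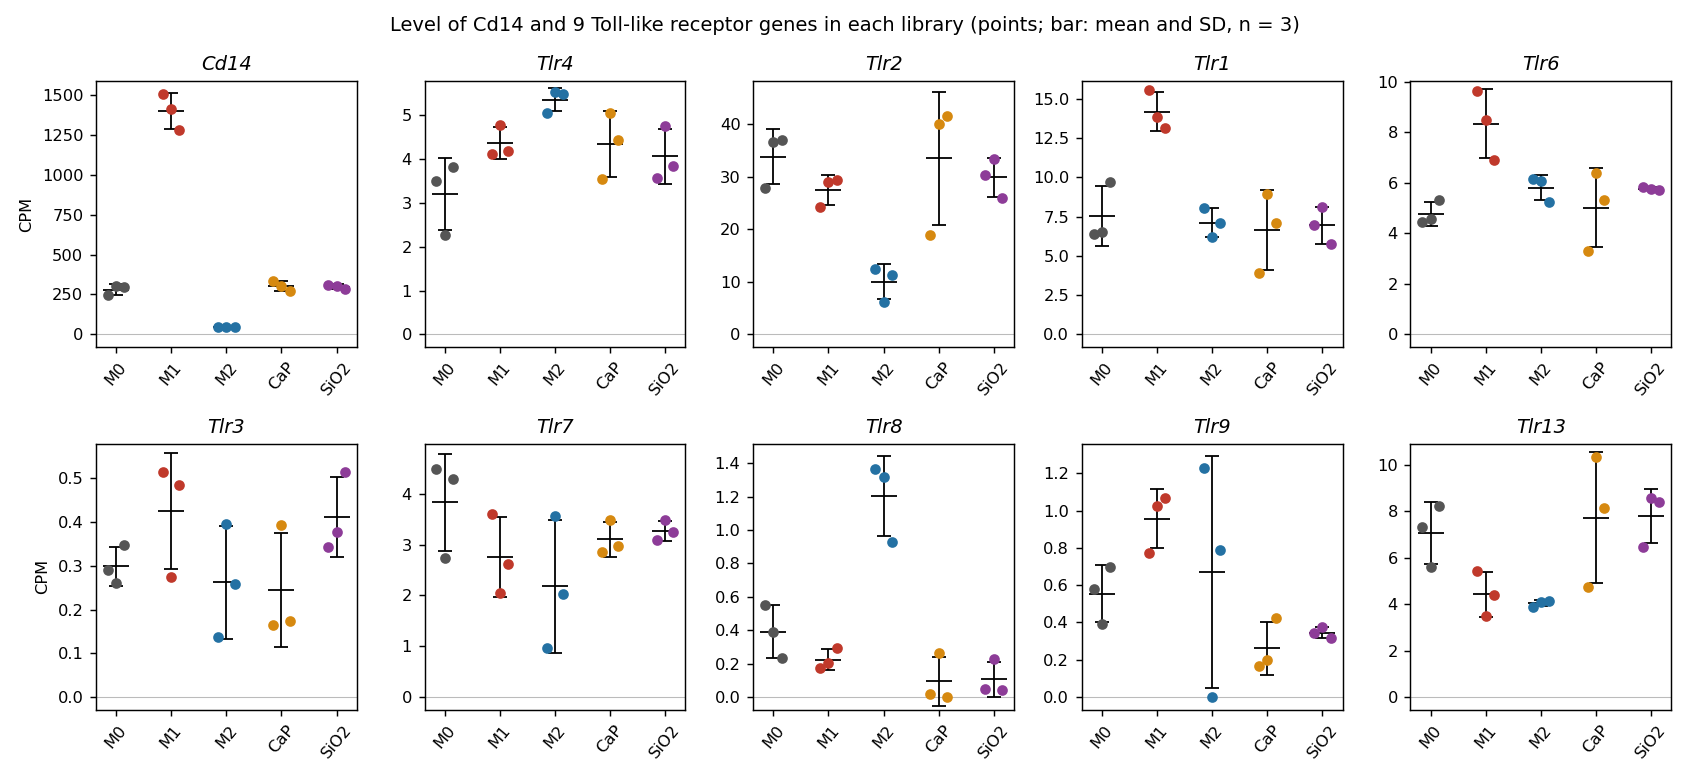
Level of each gene in CPM (linear axis) in the 15 libraries, with points for single libraries and bars for the mean and SD of 3 libraries per group. *Cd14* lies between 1284 and 1509 CPM in M1 and between 42.9 and 45.0 CPM in M2, and *Tlr8* lies between 0.930 and 1.36 CPM in M2 and at or below 0.553 CPM elsewhere.

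*Cd14*, the LPS co-receptor, moved in opposite directions in M1 and M2. Its level was 244, 304 and 294 CPM in the 3 M0 libraries. It was 1509, 1414 and 1284 CPM in M1 and 42.9, 45.0 and 43.7 CPM in M2. All M1 libraries stood above and all M2 libraries below every other library. *Cd14* rose in M1 by a log2 fold change of 2.32 (SE 0.14, adjusted p = 9.35e-08 by edgeR's quasi-likelihood test with Benjamini-Hochberg adjustment), a ratio of means of 4.99. In M2 it fell by 2.68 on the log2 scale (SE 0.14, adjusted p = 8.30e-08, same test), which made the M0 mean 6.41 times the M2 mean. Between M1 and M2 directly the ratio of means was 32.0 (log2 fold change 5.00, SE 0.16, adjusted p = 1.42e-10).

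With microrods *Cd14* stayed close to the level of resting cells. Its level was 332, 301 and 269 CPM with CaP rods and 312, 302 and 282 CPM with SiO2 rods. Both sets overlapped the M0 libraries, and the first library of each lay above them. The log2 difference from M0 was 0.10 for CaP (95% interval -0.19 to 0.38, adjusted p = 0.750 by edgeR) and 0.09 for SiO2 (95% interval -0.20 to 0.38, adjusted p = 0.936). Between the rods it was 0.01, with an interval from -0.28 to 0.29 (adjusted p = 1). Both rod groups were below M1, by log2 fold changes of -2.22 (CaP, adjusted p = 1.04e-07) and -2.23 (SiO2, adjusted p = 1.44e-07).

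*Tlr4*, the signalling receptor for LPS, differed far less than *Cd14*. Its level was 3.50, 2.28 and 3.82 CPM in M0, 4.13, 4.79 and 4.18 CPM in M1, and 5.05, 5.53 and 5.48 CPM in M2. Each polarized group lay above all M0 libraries, but neither difference passed the test. The log2 differences from M0 were 0.46 in M1 (SE 0.24, adjusted p = 0.230 by edgeR) and 0.75 in M2 (SE 0.23, adjusted p = 0.0898). DESeq2 gave the M2 difference an adjusted p of 0.0366. CaP libraries held 3.55, 5.06 and 4.44 CPM and SiO2 libraries 3.57, 4.77 and 3.84 CPM, in both cases overlapping M0.

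The proportion of *Cd14* to *Tlr4* differed between the groups accordingly. Per kilobase and within a library, 1 unit of *Tlr4* met 173 to 332 units of *Cd14* in M0, 734 to 908 in M1 and 19.8 to 21.1 in M2. The rod libraries, at 148 to 233 (CaP) and 158 to 217 (SiO2), overlapped M0. Both polarized groups gave an exact permutation p (two-sided) of 0.1, the smallest that a group size of 3 allows. Over the 16 comparisons of ratios with M0 it became 0.16 after Benjamini-Hochberg adjustment. These ratios were chosen after the values had been seen.

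*Tlr2*, the shared partner in lipoprotein recognition, fell in M2 and was not called in M1. Its level was 27.8, 36.6 and 36.9 CPM in M0 and 12.4, 6.19 and 11.4 CPM in M2. M2 libraries stood below all the others. The summed level of the 7 general macrophage markers was 1369 to 2097 CPM in M2 against 2555 to 3510 CPM in M0. The list did not move together, since *Lyz2* fell from 1847 to 368 CPM, *Adgre1* rose from 61.8 to 195 CPM, *Cd68*, *Csf1r*, *Itgam* and *Fcgr1* were not called and *Mertk* was not tested. The part of these markers in the falls of *Tlr2* and *Cd14* was not tested. The fall was 1.72 on the log2 scale (SE 0.30, adjusted p = 0.00481 by edgeR's quasi-likelihood test), and the M0 mean was 3.38 times the M2 mean. In M1 the libraries held 24.2, 29.0 and 29.3 CPM, overlapping M0, with a log2 difference of -0.29 (SE 0.29, adjusted p = 0.537). Against M2 directly, *Tlr2* was higher in M1 (log2 fold change 1.42, adjusted p = 0.00500), CaP (1.70, adjusted p = 0.00334) and SiO2 (1.54, adjusted p = 0.00846). The level was 18.9, 40.0 and 41.6 CPM with CaP rods and 30.3, 33.4 and 25.9 CPM with SiO2 rods. The first CaP library lay below all M0 libraries and the other 2 above all of them.

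*Tlr1*, whose product pairs with TLR2 to bind triacylated lipoproteins, rose in M1. It was at 6.40, 6.50 and 9.73 CPM in M0 and at 15.6, 13.9 and 13.1 CPM in M1, with no overlap. The log2 fold change was 0.94 (SE 0.28, adjusted p = 0.0370 by edgeR). *Tlr6*, whose product pairs with TLR2 to bind diacylated lipoproteins, also rose in M1, from 4.45, 4.55 and 5.33 CPM to 9.63, 8.48 and 6.90 CPM (log2 fold change 0.82, SE 0.24, adjusted p = 0.0349). Both calls lay close to the threshold. All 3 same-number pairs of M0 and M1 libraries had correlated deviations from their group means (r 0.206 to 0.292), but no label ties these numbers. Over all groups, the best-correlated library of another group had the same number in 22 of 60 cases. With the number as a block neither gene was called by edgeR (adjusted p = 0.0567 for *Tlr1* and 0.0557 for *Tlr6*), which left 1 of 9 called. Leaving out any 1 of M0 replicates 1 and 2 or M1 replicates 1 and 2 ended both, and leaving out either of the other 2 libraries ended 1 of them, with adjusted p up to 0.151 for *Tlr1* and, over all settings, up to 0.161 for *Tlr6*. The genes are neighbours on chromosome 5, and 340 windows of 75 bases occur in the longest coding transcript of both, 11.5% of the windows of *Tlr1* and 9.44% of those of *Tlr6*, so the division of reads between them is uncertain there.

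In the other groups *Tlr1* and *Tlr6* stayed near M0. *Tlr1* was at 8.05, 6.19 and 7.10 CPM in M2, at 3.94, 8.94 and 7.10 CPM with CaP rods and at 7.00, 8.09 and 5.75 CPM with SiO2 rods, all overlapping M0. *Tlr6* was at 6.14, 6.05 and 5.22 CPM in M2, at 3.30, 6.38 and 5.33 CPM with CaP rods and at 5.82, 5.75 and 5.71 CPM with SiO2 rods. The 3 SiO2 libraries lay just above the M0 range of *Tlr6* without passing the test (log2 difference 0.29, SE 0.24, adjusted p = 0.829). *Tlr1* was higher in M1 than in M2 (0.99, adjusted p = 0.0268), CaP was lower than M1 (-1.12, adjusted p = 0.0146) and so was SiO2 (-1.04, adjusted p = 0.0269). With 1 library left out, the call of *Tlr1* held in 1 of 6 fits against M2 (largest adjusted p 0.0910), in 5 of 6 for CaP (0.0565) and in 1 of 6 for SiO2 (0.127). *Tlr6* was lower in CaP than in M1 (-0.77, adjusted p = 0.0431), which held in 1 of 6 such fits.

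Relative to *Tlr2*, both dimer partners were higher in M1 and in M2 than in M0. Per kilobase, *Tlr1* relative to *Tlr2* was 0.177 to 0.262 in M0, 0.445 to 0.642 in M1 and 0.622 to 0.996 in M2. The ratio of *Tlr6* to *Tlr2* was 0.102 to 0.131 in M0, 0.193 to 0.327 in M1 and 0.377 to 0.802 in M2. Both ratios were above M0 in all libraries of both polarized groups, with *Tlr1* and *Tlr6* higher in M1 and *Tlr2* lower in M2. CaP libraries overlapped M0 in both ratios, at 0.170 to 0.223 and 0.105 to 0.143. SiO2 libraries overlapped M0 for *Tlr1* (0.221 to 0.242) but lay above it for *Tlr6* (0.141 to 0.180). *Tlr1* relative to *Tlr6* was 1.74 to 2.22 in M0, 1.96 to 2.31 in M1 and 1.24 to 1.65 in M2, and both rod groups were below the M0 range, at 1.45 to 1.70 (CaP) and 1.22 to 1.71 (SiO2). The exact permutation p was 0.1, the smallest possible, wherever groups did not overlap (adjusted p = 0.16 over the 16 comparisons).

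**Figure D2:**
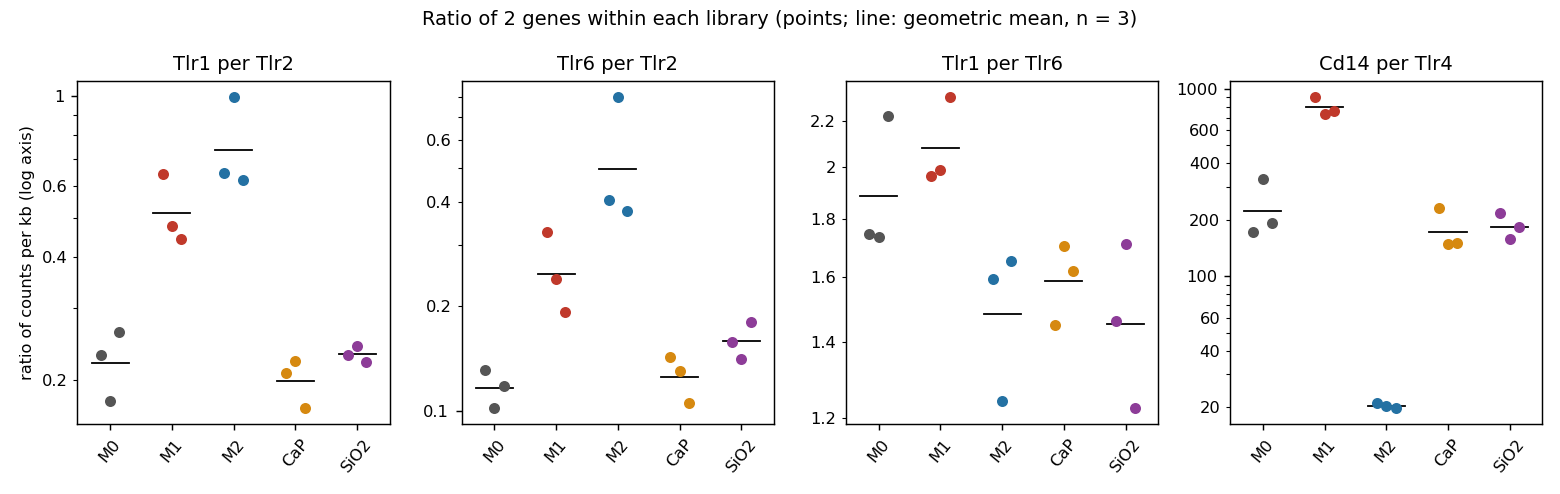
Ratio of 2 genes per kilobase of transcript within each library (log axis), with a point per library and a line at the geometric mean of the 3 libraries of a group. *Tlr1* and *Tlr6* relative to *Tlr2* lie above M0 in all M1 and M2 libraries, and *Cd14* relative to *Tlr4* is 734 to 908 in M1 and 19.8 to 21.1 in M2.

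Among the endosomal receptors, *Tlr8*, a sensor of single-stranded RNA, was rare everywhere and highest in M2. It had 21, 6 and 2 counts in M0, 20, 10 and 65 in M2 and 2, 3 and 3 in M1. It had 1, 4 and 0 counts with CaP rods and 1, 3 and 1 with SiO2 rods, so no library of M1 or SiO2 had more than 3 counts, taken as the floor. In CPM the M2 libraries held 1.36, 1.32 and 0.930, above every other library. With 3 counts set for each library of M1 and SiO2, the M2 mean was 4.79 times the M1 value and 7.33 times the SiO2 value. These ratios leave out counting error in M2 and in libraries that held up to 3 counts. *Tlr8* passed the filter on low counts only through the M2 libraries, so its tests against M2 are not given as support. Against M0, the differences of CaP and SiO2 had adjusted p of 0.111 and 0.478 by edgeR.

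*Tlr9*, the receptor for unmethylated CpG DNA, was almost as rare. Its counts were 22, 6 and 6 in M0, 9, 15 and 11 in M1 and 18, 0 and 55 in M2, where 0 counts in the second and least deep M2 library allow up to 0.395 CPM. Rod-exposed cells had 8, 3 and 17 counts with CaP and 7, 5 and 8 with SiO2. In CPM this was 0.579, 0.390 and 0.695 in M0, 0.774, 1.03 and 1.07 in M1, 0.164, 0.197 and 0.424 with CaP rods and 0.343, 0.378 and 0.317 with SiO2 rods. M1 libraries lay above and SiO2 libraries below all those of M0, and neither passed the test (adjusted p = 0.345 and 0.842 by edgeR). *Tlr9* was lower in CaP than in M1 (log2 fold change -1.81, SE 0.54, adjusted p = 0.0410), a call held in 1 of 6 fits that left out 1 library. SiO2 against M1 gave -1.48 (SE 0.57, adjusted p = 0.130).

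*Tlr7*, a further sensor of single-stranded RNA, and *Tlr13*, which recognises bacterial ribosomal RNA, were more abundant and were called in 0 of 10 comparisons by edgeR with all libraries. *Tlr7* was at 4.48, 2.73 and 4.29 CPM in M0, at 3.61, 2.05 and 2.62 CPM in M1 and at 0.955, 3.55 and 2.03 CPM in M2. *Tlr7* had 2.85 to 3.48 CPM with CaP rods and 3.08 to 3.48 CPM with SiO2 rods, and every group overlapped M0. *Tlr13* was at 7.32, 5.59 and 8.22 CPM in M0, at 5.42, 3.49 and 4.37 CPM in M1 and at 3.89, 4.08 and 4.12 CPM in M2. Both polarized groups lay below all M0 libraries of *Tlr13*. The log2 differences were -0.67 in M1 (SE 0.29, adjusted p = 0.154 by edgeR) and -0.79 in M2 (SE 0.29, adjusted p = 0.159). With CaP rods *Tlr13* was at 4.72, 10.3 and 8.12 CPM and with SiO2 rods at 6.46, 8.55 and 8.40 CPM, overlapping M0.

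*Tlr3*, the receptor for double-stranded RNA, had 2 to 18 counts per library and was not tested. Its level lay between 0.136 and 0.516 CPM over the 15 libraries, and the ranges of every group overlapped that of M0. Without the filter it was called in 0 of 10 comparisons. Its exons overlap those of *Gm45542* on the opposite strand, and since the library method does not mark strand, reads of the 2 genes cannot be told apart there.

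Counted together, 3 of the 9 tested genes rose and 0 fell in M1 against M0 (*Cd14*, *Tlr1*, *Tlr6*). A gene was called at an adjusted p under 0.05 with an absolute log2 fold change over 0.5, and of the 16654 genes tested 14.1% were called, 9.7% higher and 4.37% lower. In M2, 0 rose and 2 fell (*Cd14*, *Tlr2*), where 4.13% of all genes were called, 2% higher and 2.13% lower. The median log2 difference of the 9 genes was 0.46 in M1 and -0.04 in M2, beside -0.01 and 0.07 over all genes tested. *Tlr8* is among the 9 through its M2 level alone. The comparisons share the M0 libraries, so their values are not independent.

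**Figure D3:**
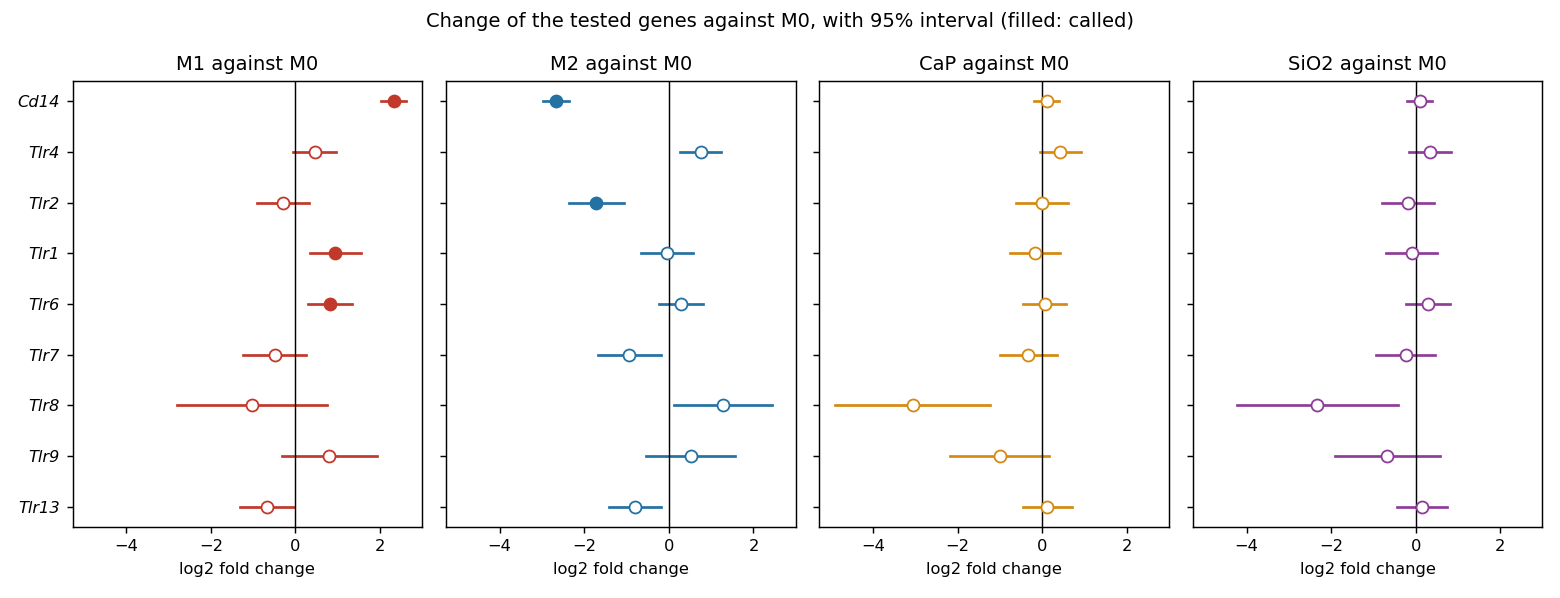
Log2 fold change of the 9 tested genes against M0 in each treatment, with the 95% interval from edgeR as a line and filled points for genes that were called. Filled points are *Cd14*, *Tlr1* and *Tlr6* in M1 and *Cd14* and *Tlr2* in M2, while the rod panels have none.

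Neither rod changed a tested gene of the set past the threshold. edgeR called 0 of 9 for CaP and 0 of 9 for SiO2 against M0, and 0 of 9 between the rods, with 0.654%, 0.264% and 0.018% of all tested genes called. At an unadjusted p under 0.05 there was 1 for CaP and 1 for SiO2, *Tlr8* in both, and 0 between the rods. DESeq2 called 0 in each of the 3 comparisons among the members to which it gave an adjusted p. The intervals limit what could have been missed. Against M0, the 95% interval of *Tlr2* ran from -0.62 to 0.60 for CaP and from -0.79 to 0.44 for SiO2, and that of *Tlr4* from -0.05 to 0.91 and from -0.16 to 0.83. For *Tlr8* they were far wider, from -4.89 to -1.24 for CaP and from -4.23 to -0.43 for SiO2, with most rod libraries at 0 or 1 count.

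Rod-exposed cells were also compared directly with the polarized groups. Against M1, 4 of 9 were lower with CaP rods (*Cd14*, *Tlr1*, *Tlr6*, *Tlr9*) and 2 of 9 with SiO2 rods (*Cd14*, *Tlr1*), beside 12.7% and 10.5% of all genes called. Against M2, *Cd14* and *Tlr2* were higher with either rod, 2 of the 8 members other than *Tlr8*, beside 4.46% and 3.65%. Between M1 and M2, 3 of these 8 were called (*Cd14*, *Tlr1* and *Tlr2*, all higher in M1), beside 16.1%. *Tlr8* is left out of the counts against M2 because it passed the filter only through M2. The 2 rods share the M1 and M2 libraries in these comparisons.

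CaP replicate 1 stood apart from the other CaP libraries. Of the 7 members that reached 10 counts everywhere, 6 of 7 were below both other CaP libraries there, by a median of 0.80 on the log2 scale, and *Cd14* was above both. In that library 41.4% of all tested genes were below both others. Without it, *Tlr2* changed from -0.01 to 0.26 and *Tlr13* from 0.11 to 0.37 on the log2 scale against M0, and 0 of 9 were called. *Tlr13* was then called higher in CaP than in M1 (1.05, adjusted p = 0.0109) and M2 (1.17, adjusted p = 0.0116), while the calls of *Tlr6* and *Tlr9* against M1 were lost (adjusted p = 0.109 and 0.137).

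**Figure D4:**
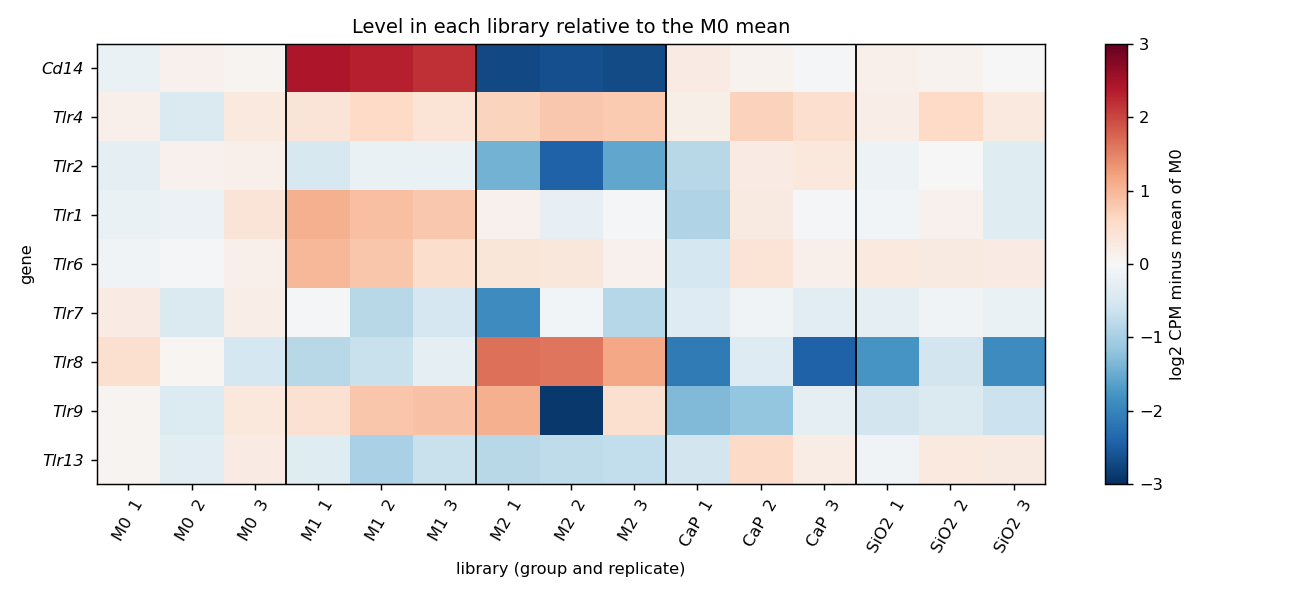
Log2 CPM of each tested gene in each of the 15 libraries minus the mean of the 3 M0 libraries, red for higher and blue for lower, with colours limited at -3 and 3. *Cd14* is uniformly red in M1 and blue in M2, CaP replicate 1 is bluer than the other CaP libraries for most genes, and *Tlr9* in M2 replicate 2 had 0 counts.

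The other genes of the pathway were taken from a list of 53, of which 49 were tested. In M1, 9 of 49 rose and 4 fell against M0, beside 9.7% and 4.37% of all genes tested, and their median log2 difference was 0.24. Markers of the macrophages themselves moved too, *Adgre1* and *Fcgr1* rising and *Csf1r* falling, and their part was not tested. *Irak3*, an inhibitory kinase-like protein of the receptor complex, rose from 9.20 ± 2.79 to 78.7 ± 5.39 CPM (SD, n = 3, log2 fold change 3.13, adjusted p = 5.48e-05 by edgeR). *Slc15a3*, an endosomal transporter of histidine and bacterial peptides, rose from 11.7 to 91.4 CPM (2.97). Among the brakes, *Zc3h12a*, an RNase that degrades cytokine transcripts, rose by 1.97 and *Tnip1*, a partner of the deubiquitinase A20, by 1.44. Genes listed with the kinases and ligases that rose were *Ikbke* (1.57), *Peli1* (1.41) and *Ikbkg* (0.94). The adaptor *Pik3ap1* (1.28) and the transcription factor *Irf7* (2.44) rose too.

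Those that fell in M1 were *Tlr5*, the flagellin receptor, from 1.94 ± 0.187 to 0.158 ± 0.0553 CPM (log2 fold change -3.56, adjusted p = 0.000121 by edgeR), and *Ly86*, which encodes the MD-1 partner of RP105, from 5.55 to 0.501 CPM (-3.48). The M1 mean of *Tlr5* lay below the floor of 3 counts per library, which was 0.252 CPM on average in M1. The size of its fall is therefore uncertain. The adaptor *Tirap*, which links TLR2 and TLR4 to MyD88, fell by 0.83 and the inhibitory receptor *Sigirr* by 0.63 on the log2 scale. The call of *Sigirr* held in 6 of 14 settings and was lost with the replicate number as a block (adjusted p = 0.0590), which ended no other pathway call in M1. In M2, where 2% of all genes rose and 2.13% fell, 1 of 49 rose (*Irf7*, log2 fold change 2.51, adjusted p = 0.00264) and 2 fell, *Tirap* (-0.78, adjusted p = 0.0204) and the endosomal protease *Ctsl* (-0.76, adjusted p = 0.0366). Of 6 fits that left out 1 library, 3 of 6 called *Tirap* and 1 of 6 called *Ctsl*. The M2 genes were named after their values had been seen.

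With either rod 0 of 49 pathway genes were called against M0 by edgeR, beside 0.654% (CaP) and 0.264% (SiO2) of all tested genes. At such shares, 0 of 49 does not set the pathway apart from other genes. At an unadjusted p under 0.05 by edgeR there were 11 (CaP) and 9 (SiO2), and the share of all genes at that level was not determined. DESeq2 called 2 for CaP, *Tirap* and the kinase gene *Irak2*, and 1 for SiO2, the protease gene *Ctsb*. In edgeR *Tirap* was at 19.6 ± 0.928 CPM with CaP rods against 34.0 ± 3.52 in M0 (log2 difference -0.80, adjusted p = 0.0516), and *Irak2* at 14.2 ± 5.72 against 5.38 ± 0.826 CPM (1.40, adjusted p = 0.0665). *Ctsb* was at 1513 ± 139 CPM with SiO2 rods against 702 ± 208 in M0 (1.11, adjusted p = 0.245). Between the rods 0 of 49 were called by edgeR, beside 0.018% of all tested genes, and 0 by DESeq2, with 1 at an unadjusted p under 0.05 by edgeR.

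**Figure D5:**
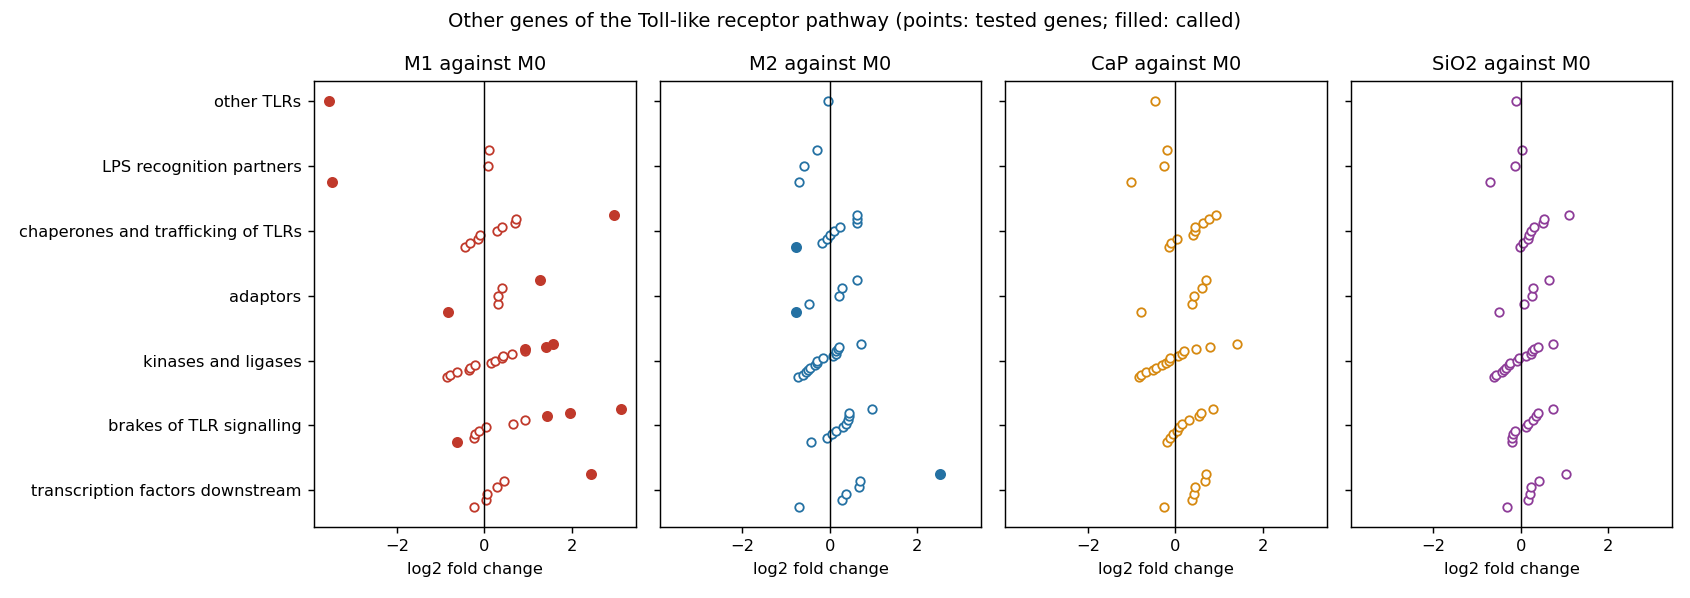
Log2 fold change against M0 of the 49 tested genes of the pathway list, a point per gene, in rows by role, with filled points for genes called by edgeR. M1 has 13 filled points, M2 has 3, and the rod panels have 0.

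For each gene called in at least 1 comparison, the genes with the most similar pattern over the 15 libraries were found as those with the smallest root mean square difference of centred log2 CPM among 10722 candidates. *Cd14* was nearest to *Htra1* (0.46), *Clec4n* (0.54) and *Cxcl10* (0.55), beside a root mean square of 1.59 of *Cd14* about its own mean. The match is limited by low levels, since *Htra1* had a mean of 0.556 CPM in M0 and 0.0334 CPM in M2. *Cxcl10* had 0.899 CPM in M2. *Tlr2* was nearest to *Elk3* (0.26), *Il17ra* (0.29) and *Pmaip1* (0.30), *Tlr1* to *Tmem50b* (0.17), *Orc2* (0.18) and *Acsl1* (0.18), and *Tlr6* to *Mettl8* (0.15), *Ap3m1* (0.16) and *Ncbp1* (0.16). *Tlr8* is listed only through its calls against M2, the group through which alone it passed the filter. It was nearest to *C3* (0.58), *Ksr2* (0.63) and *Clec4a3* (0.63), and *Tlr9* to *Gm42372* (0.62), *Card9* (0.66) and *Il4ra* (0.67). The distances of *Tlr8* and *Tlr9* were the largest, beside 1.24 and 1.00 about their own means. The pattern of *Tlr9* includes M2 replicate 2, which had 0 counts. Shared regulation of similar genes was not tested.

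Added together, the 9 receptor genes without *Cd14* made up 61.4 ± 7.35 CPM in M0, 63.2 ± 0.787 in M1, 36.6 ± 3.03 in M2, 61.0 ± 20.3 with CaP rods and 58.6 ± 5.79 with SiO2 rods (SD, n = 3). *Tlr2* was the largest term of each sum, and M1 stayed near M0 with *Tlr1* and *Tlr6* higher and *Tlr2* and *Tlr13* at lower means.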

How the data were processed

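RNA of MH-S cells was measured in 15 libraries, 3 wells in each of 5 groups assigned from the sample labels. The authors made Smart-seq2 libraries without molecular identifiers, processed the paired-end reads with nf-core/rnaseq 3.14.0 (STAR and Salmon) on Ensembl 114 (GRCm39), and deposited 1 table of whole-number counts per gene without normalization. Salmon estimates counts, so reads of near-identical genes were divided in that step. All columns were mapped by name, with 0 unused. Of 78317 identifiers 51487 received a symbol.

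The analysis ran in R 4.3.3. It used edgeR 4.0.16 with limma 3.58.1, filterByExpr by group, TMM scaling and the quasi-likelihood test on 16654 genes in 1 model of all libraries, without a term for the replicate number, and Benjamini-Hochberg adjustment over all genes. CPM are counts divided by scaled library size, and standard errors come from the model. A gene was called where adjusted p was under 0.05 and the log2 fold change exceeded 0.5 in size, as in the study's methods. No label ties the replicate numbers of different groups to each other. All 3 same-number pairs of deviations from the group mean correlated above 0.1 between M0 and M1 (r 0.206 to 0.292) and between M2 and SiO2 (0.128 to 0.506), and not between other groups. The floor was 3 counts per library. Depth ran from 8459643 to 68750050 counts. Counts come from amplified cDNA, so floors cover at most the counting error of a library with 0 counts. Transcript lengths and shared sequence were taken from GENCODE M21 on GRCm38.

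All members were named, and of the pathway and marker lists the genes called in M1 against M0 or in a rod comparison, at most 4 per list and comparison. The 3 most similar genes were taken for each called member from tested genes whose mean reached 5 CPM in some group, with a prior count of 2. The members and lists were chosen with earlier results of these data known. The test was run on simulated counts with 200 genes changed in M1. The counts were drawn from edgeR's own fitted dispersions, so this check cannot show how the test behaves where the data depart from that model. Alternatives were DESeq2 1.42.0, DESeq2's size factors, no filter, at least 10 counts in every library, a replicate block, only the libraries compared, only the 9 libraries without polarized cells, no minimum fold and each library left out in turn. The legacy quasi-likelihood was added after seeing the data.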

Additional observations from a re-analysis of the deposited data

How the results depend on the processing

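*Cd14* was called in all 14 settings in every comparison with M1 or M2. Over all members and comparisons, 1248 values of the alternatives were set beside the main fit. Of these, 1183 kept their side of the threshold, 53 lost it, 12 gained it and 0 called values reversed. Among those not called, 45 changed sign. The setting without a minimum fold reused the values of the main fit with a looser cut, so it could lose no call. It is included in these counts and in the numbers of settings.

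In M1 against M0, 3 members were called, but 1 (*Cd14*) without a filter, 1 with a replicate block and 1 with only the 6 libraries compared, and 1 to 2 with 1 library left out. In M2 against M0, 2 were called, and 1 with only the 6 libraries compared, where *Tlr2* had an adjusted p of 0.0749; leaving out a library gave 2 to 3. For CaP against M0 the count of 0 became 1 (*Tlr8*) without a filter, and lay between 0 and 1 with a library left out, the 1 being *Tlr8* without CaP replicate 2. With *Tlr8* included, for M1 against M2 the count of 4 fell to between 2 and 3 with a library left out. For CaP against M1 the count of 4 was 2 with the legacy quasi-likelihood and 1 to 4 with a library left out (1 without M1 replicate 1). For SiO2 against M1 the count of 2 was 4 with only the 6 libraries compared, which added *Tlr9* and *Tlr13*, and 1 to 2 with a library left out. The counts of the rods against M2 also include *Tlr8*, whose tests against M2 are not given as support. For CaP against M2 the count of 3 was 1 with only the 6 libraries compared and 3 to 4 with a library left out. SiO2 against M2 gave 2 to 3. The causes were not tested.

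Over all groups, 14 of 30 same-number pairs of deviations correlated above 0.1 (range -0.70 to 0.60). Of the 2 comparisons whose pairs all did, the replicate block ended the calls of *Tlr1* and *Tlr6* in M1 against M0 and no call of a member in SiO2 against M2. In the other comparisons the block ended 1 member call, *Tlr6* in CaP against M1 (3 called with it, 4 without). Counts over all genes moved more, from 1511 to 3394 around 2342 in M1, from 98 to 1361 around 687 in M2, from 7 to 968 around 109 for CaP and from 1 to 205 around 44 for SiO2, all against M0, from 2 to 104 around 3 between the rods, from 1377 to 4407 around 2679 in M1 against M2, from 1350 to 3882 around 2108 and from 1114 to 2434 around 1741 for CaP and SiO2 against M1, and from 252 to 946 around 742 and from 269 to 766 around 608 against M2. *Tlr3*, *Tlr8* and *Tlr9* are limited by depth.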
